A study of Homo sapiens with 2 samples.

Results

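The amino acid transporters described here were 10 genes taken by symbol from the deposited count table: SLC3A2, SLC7A5, SLC7A6, SLC7A11, SLC7A1, SLC1A5, SLC1A4, SLC38A1, SLC38A2 and SLC43A1. The table names 60623 genes, of which 13217 had a mean of at least 1 CPM (counts per library scaled to 1000000), and all 10 transporters were among these. RNA-seq libraries were made from cultures of HCT116, a human colon carcinoma cell line labelled as wild type in genotype. The siKAT7 culture was transfected with an siRNA against KAT7, and the siControl culture with a non-specific siRNA, both with Lipofectamine 2000. KAT7, also called HBO1, is a histone acetyltransferase, and the comparison asked how its knockdown alters transcription. Each group had 1 library, so no value has a replicate, the difference between cultures and the effect of the siRNA cannot be told apart, and every interval covers counting error only. In such bulk RNA, fewer cells expressing a gene and less RNA per cell cannot be told apart.

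Amino acid transporters carry nutrients across the cell membrane by uniport, by exchange of one amino acid for another, or by coupling to sodium. SLC3A2 (4F2hc, CD98) is a glycoprotein heavy chain that joins by a disulfide bond to a light chain of the SLC7 family, and the light chain sets which amino acids are moved. In tumour cells the glutamine carrier SLC1A5 and the leucine exchanger SLC7A5 are known for feeding mTORC1, the cystine exchanger SLC7A11 for supplying glutathione synthesis, and several of these genes are known targets of the stress-induced factor ATF4.

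KAT7 itself had 287.22 expected counts (12.7 CPM) in siKAT7 and 442.94 (18.2 CPM) in siControl, a log2 ratio of -0.52 with a 95% counting interval of -0.74 to -0.31. At 1.44-fold lower, KAT7 falls short of the 1.5-fold difference needed for a call below. A higher log2 ratio was found in 94.2% of all genes tested. Named genes summed to 23533186 expected counts in siKAT7 and 23450331 in siControl. Epithelial genes were present, with 8 of 11 fixed markers at or above 1 CPM and a summed level of 13966 CPM in siKAT7 and 12920 CPM in siControl. All 8 had a log2 ratio above 0, with a median of 0.20, 6 intervals above 0 and 0 genes called. Over all genes 49.3% were above 0, 23.0% had an interval above 0 and 3.91% were called in each direction. Under total-count scaling 5 of the 8 were above 0 and their median was 0.097, against 4505 of all 13217 genes above 0. Among them CLDN4 and CLDN7, tight junction claudins named after their values were seen, had log2 ratios of 0.41 and 0.35, close to those of SLC7A5 and SLC1A5. EPCAM, KRT8 and KRT18 had 0.0032, 0.04 and 0.0025, and KRT19 and CDH1 had 0.20 and 0.21. The part of these markers in the transporter values was not tested. The colon genes CDX1 and LGALS4 had 0 counts in siKAT7, and 0 and 3 counts in siControl. CDX2, another intestinal gene of the list, was present, with 390 counts in siKAT7 and 338 in siControl. Its log2 ratio was 0.31 (0.09 to 0.52). VIL1, under 1 CPM, had 11.77 counts in siKAT7 and 15.27 in siControl. Of 14 markers of fibroblasts, blood and endothelium, 12 were under 1 CPM and 5 were at 0 in both libraries, and their summed level was 124 CPM in siKAT7 and 114 CPM in siControl. CD68 and COL1A1 were the measured pair.

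Of the 10 transporter genes, 8 had a log2 ratio above 0 (siKAT7 over siControl; 49.3% of all genes did), and the increase was of similar size in the 3 most abundant of them. SLC3A2, SLC7A5 and SLC1A5 were 1.35-fold, 1.33-fold and 1.31-fold higher, while SLC7A1, SLC38A1 and SLC38A2 were within counting error of no difference. SLC1A4 alone passed the rule for a call, which is a 1.5-fold difference with an interval that excludes 0. Thus 1 of 10 was called higher and 0 lower, against 3.91% of all 13217 genes called higher and 3.91% called lower. A lower threshold, a log2 ratio of 0.32, called 5 of the 10 higher (SLC3A2, SLC7A5, SLC1A5, SLC1A4 and SLC43A1), against 10.1% of all genes. An interval above 0 at any fold was found for 6 of the 10 genes, against 23.0% of all genes, and an interval below 0 for 0 of them, against 22.0%. SLC7A6 is counted among the 8 and the 6, although its log2 ratio was -0.09 when overlapping genes were added. Where the mean was at least 10 CPM, 0 of the 7 transporters that reach it were called in either direction, against 1.39% of 7834 genes called higher and 0.766% called lower. Of these 7 transporters 4 had an interval above 0, against 30.0% of those genes, and 0 an interval below 0, against 26.7%. The median log2 ratio was 0.37 over the 10 transporters and -0.0049 over all genes. Scaling by total counts moves log2 ratios by a median of -0.11 from the trimmed-mean (TMM) scaling used here. Under total-count scaling the transporter median was 0.26, 0 of the 10 were called higher or lower (2.72% and 6.34% of all genes), 4 of the 10 had an interval above 0 (13.3% of all genes), and 1, SLC7A1, had an interval below 0 (35.6% of all genes).

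**Figure D1:**
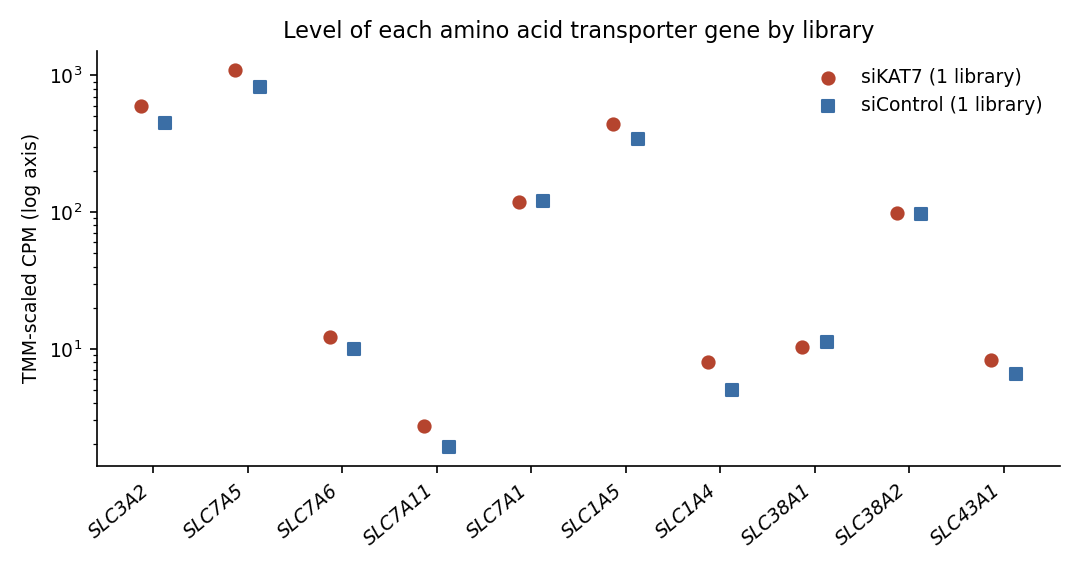
Level of the 10 transporter genes in TMM-scaled CPM on a log axis, with 1 point per library (siKAT7 circles, siControl squares, no replicates). SLC7A5, SLC3A2 and SLC1A5 lie above 300 CPM in both libraries, and SLC7A11 is the lowest at 2.73 CPM in siKAT7 and 1.91 CPM in siControl.

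The 10 genes together held 54529.02 expected counts (0.232% of the library) in siKAT7 and 45421.26 (0.194%) in siControl. SLC7A5, SLC3A2 and SLC1A5 made up 89.2% of their summed CPM in siKAT7 and 86.5% in siControl. Per kilobase of the deposited gene length, SLC3A2 was the highest in both libraries, followed by SLC7A5, SLC1A5, SLC38A2 and SLC7A1, and SLC7A11 was the lowest. SLC38A1, which has a deposited length of 2599 bases, stood 6 of 10 on that scale. With the longest coding transcript of GENCODE 29, 8066 bases, it stood 9 in siKAT7 and 8 in siControl, so its place per length is uncertain.

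The starts of 4 of these genes are shown, because SLC7A5 and SLC3A2 encode a pair of chains that work together, SLC1A4 was the called gene and SLC7A1 had an interval that included 0 under TMM scaling. Sequences are from the RefSeq table of GRCh38.p14, which lists 16 windows (250 bases before to 50 after a start) for 9 of the 10 genes, SLC7A11 being the other. They are printed 5′ to 3′ on the strand of the gene, beginning 250 bases before the start, with motif matches in capitals. The printed starts of SLC3A2 and SLC1A4 lie inside the GENCODE gene spans given further on. Both genes have further windows, and the window with motif matches is the one printed. SLC7A5 is at chr16:87869501-87869757 (reverse strand), SLC3A2 at chr11:62881449-62881673 (forward), SLC1A4 at chr2:64989149-64989399 (forward) and SLC7A1 at chr13:29595674-29595938 (reverse).
SLC7A5: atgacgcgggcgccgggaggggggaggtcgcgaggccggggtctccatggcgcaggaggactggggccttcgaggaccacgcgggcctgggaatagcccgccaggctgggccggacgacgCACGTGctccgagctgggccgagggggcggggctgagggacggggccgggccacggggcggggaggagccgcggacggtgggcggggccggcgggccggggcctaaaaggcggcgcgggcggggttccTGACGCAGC
SLC3A2: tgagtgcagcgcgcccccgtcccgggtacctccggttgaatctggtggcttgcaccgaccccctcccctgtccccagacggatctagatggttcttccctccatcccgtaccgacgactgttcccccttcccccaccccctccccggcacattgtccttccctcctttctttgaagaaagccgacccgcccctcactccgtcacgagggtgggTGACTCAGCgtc
SLC1A4: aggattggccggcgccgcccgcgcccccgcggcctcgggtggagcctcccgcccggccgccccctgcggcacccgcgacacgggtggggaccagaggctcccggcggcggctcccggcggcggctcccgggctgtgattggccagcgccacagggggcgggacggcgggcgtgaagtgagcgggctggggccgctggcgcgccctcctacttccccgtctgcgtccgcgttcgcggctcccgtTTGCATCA
SLC7A1: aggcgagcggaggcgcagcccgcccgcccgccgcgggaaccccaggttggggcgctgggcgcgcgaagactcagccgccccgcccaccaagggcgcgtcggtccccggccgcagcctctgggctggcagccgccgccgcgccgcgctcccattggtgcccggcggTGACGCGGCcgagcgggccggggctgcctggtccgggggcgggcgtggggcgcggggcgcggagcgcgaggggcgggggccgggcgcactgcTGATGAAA

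Motifs with fixed letters were searched on both strands of whole windows. The core TGATGNAA of the element bound by ATF4 with C/EBP partners occurred in 5 of the 16 windows, from SLC1A4, SLC1A5, SLC38A1, SLC3A2 and SLC7A1, and in 3.62% of the 35093 distinct windows in the table. The SLC1A4 match, TTGCATCA on the opposite strand, covers bases -7 to 1 of the SLC1A4 window shown, where 1 is the first transcribed base. The other SLC1A4 window held no match to any motif searched. Its upstream bases end at 64988478, beside the GENCODE gene start of 64988477. SLC3A2 has its match, TTACATCA, at bases 38 to 45, beyond the stretch printed. The E-box CACGTG, bound by MYC with MAX and by other factors, occurred in 3 member windows (SLC7A5, SLC1A5, SLC43A1) and 7.26% of all. TGACNNNGC, the core of the element bound by NRF2, occurred in 5 member windows (SLC7A5, SLC3A2, SLC1A5, SLC7A1, SLC7A6) and 13.4% of all. The palindrome TGACGTCA, bound by CREB and ATF factors, occurred in 0 member windows and 1.85% of all. None of the 14 matches in member windows overlapped another. Of the 5 genes with the TGATGNAA core, SLC1A4, SLC3A2 and SLC1A5 had intervals of the log2 ratio above 0, and those of SLC38A1 and SLC7A1 included 0. SLC7A5, with no match to it in its window, also had an interval above 0. A match is a run of letters and not a measured binding site.

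The heavy chain SLC3A2 (ENSG00000168003, chromosome 11, 62856102 to 62888875 of GRCh38, forward strand) had 13639 counts in siKAT7 and 10866 in siControl. On the CPM scale these are 601 in siKAT7 and 446 in siControl. Its log2 ratio was 0.43 (interval 0.39 to 0.47). A higher log2 ratio was found in 8.35% of all genes tested, and in 3.98% of those above a mean of 10 CPM. No 50-base window of its longest coding transcript occurs in the transcripts of another gene in GENCODE 29.

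SLC7A5 (ENSG00000103257, LAT1, chromosome 16, 87830023 to 87869488, reverse strand) is the light chain that exchanges large neutral amino acids such as leucine for intracellular glutamine. It had 24952.77 expected counts (1100.4 CPM) in siKAT7 and 20158.77 (828 CPM) in siControl. The log2 ratio was 0.41 (0.38 to 0.44), which overlaps the interval of SLC3A2. The SLC7A5 to SLC3A2 count ratio was 1.83 in siKAT7 and 1.86 in siControl. Its log2 change of -0.02 (-0.07 to 0.03) does not depend on scaling between libraries, so the log2 ratios of the heavy and the light chain differed by less than counting error. Of the SLC7A5 transcript windows 5.62% also occur in other genes, and adding SLC7A5P1, SLC7A5P2 and an antisense gene left the log2 ratio at 0.41.

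SLC7A5 was also the main light chain by RNA level. Over the 6 light chain genes of SLC3A2 (SLC7A5, SLC7A6, SLC7A7, SLC7A8, SLC7A10 and SLC7A11), CPM per kilobase summed to 249.1 in siKAT7, against 270.7 for SLC3A2. In siControl the light chains summed to 189, against 201 for SLC3A2. Light chains thus amounted to 0.920 of the heavy chain level in siKAT7 and 0.940 in siControl. SLC7A5 made up 97.0% of the light chain sum in siKAT7 and 96.3% in siControl. The next light chain by level, SLC7A8 (LAT2), had 498 counts in siKAT7 and 520 in siControl, a log2 ratio of 0.04 (-0.14 to 0.22).

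SLC7A11 (ENSG00000151012, xCT, chromosome 4, 138164097 to 138242349, reverse strand) is the light chain that imports cystine in exchange for glutamate. It had only 62 counts (2.73 CPM) in siKAT7 and 46.48 (1.91 CPM) in siControl. Its fold of 1.44 was the nearest below the 1.5-fold threshold, but the log2 ratio of 0.53 carries an interval of -0.04 to 1.12, so a difference was not detectable at this depth. The central 95% of the genes with mean levels of 1 to 3 CPM had log2 ratios from -1.38 to 1.32. The antisense gene SLC7A11-AS1 had 4 counts in siKAT7 and 1 in siControl, and with these added the log2 ratio of SLC7A11 was 0.57 (0.03 to 1.16). The SLC7A11 to SLC3A2 count ratio was 0.0045 in siKAT7 and 0.0043 in siControl, with a log2 change of 0.10 (-0.45 to 0.65).

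SLC7A6 (ENSG00000103064, y+LAT2, chromosome 16, 68264516 to 68301823, forward strand) is the light chain that exchanges cationic amino acids for neutral ones with sodium. It had 277.1 expected counts (12.2 CPM) in siKAT7 and 241.25 (9.91 CPM) in siControl, a log2 ratio of 0.30 (0.05 to 0.56). This value depends on how reads were divided. SLC7A6OS, a gene on the opposite strand that shares 3371 exonic bases with SLC7A6, had 286.9 counts in siKAT7 and 393.75 in siControl, a log2 ratio of -0.35 (-0.58 to -0.13). In the SLC7A6 transcript 57.1% of 50-base windows also occur in other genes. With SLC7A6OS and a further antisense gene added, the sums were 564 in siKAT7 and 645 in siControl, and the log2 ratio turned to -0.09 (-0.26 to 0.07). The sources used here do not say whether counting used strand, so no direction can be assigned to SLC7A6.

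**Figure D2:**
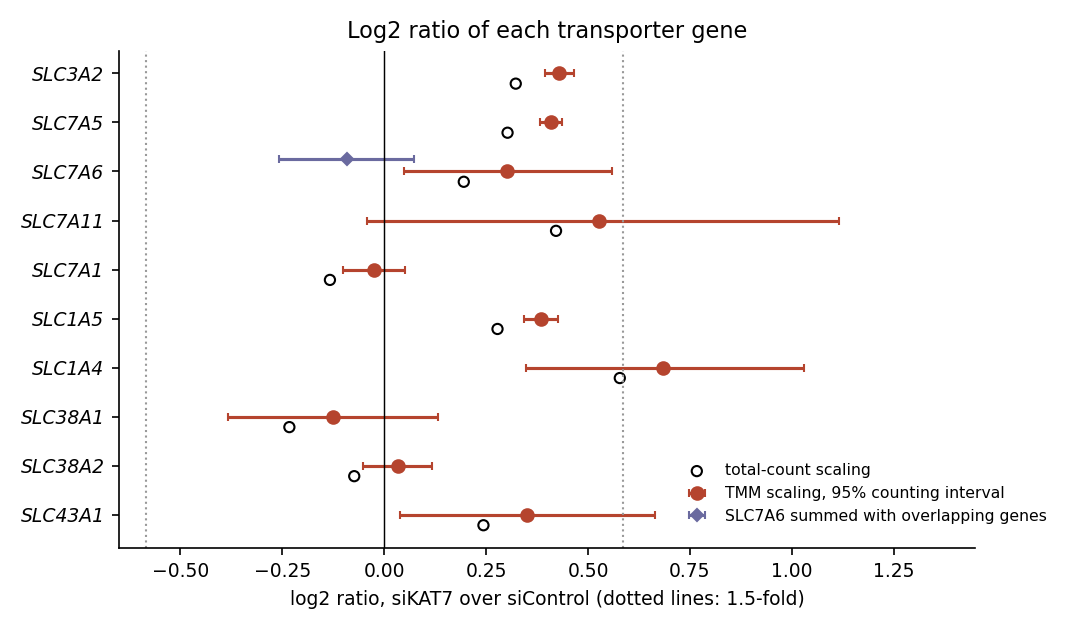
Log2 ratio (siKAT7 over siControl) of the 10 transporter genes with 95% counting intervals under TMM scaling, and open circles for total-count scaling. SLC3A2, SLC7A5 and SLC1A5 have narrow intervals between 0.34 and 0.47, SLC1A4 lies past the dotted 1.5-fold line under TMM scaling and just short of it under total-count scaling, and SLC7A6 lies at -0.09 when overlapping genes are added (diamond).

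SLC7A1 (ENSG00000139514, CAT1, chromosome 13, 29509410 to 29595688, reverse strand) is a uniporter of arginine, lysine and ornithine that needs no heavy chain. It had 2689 counts (119 CPM) in siKAT7 and 2938 (121 CPM) in siControl. The log2 ratio was -0.03 (-0.10 to 0.05), and under total-count scaling it was -0.13 (-0.21 to -0.06). Relative to SLC7A1 the leucine exchanger was higher whatever the scaling. The SLC7A5 to SLC7A1 count ratio was 9.28 in siKAT7 and 6.86 in siControl, a log2 change of 0.44 (0.36 to 0.52).

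SLC1A5 (ENSG00000105281, ASCT2, chromosome 19, 46774883 to 46788594, reverse strand) exchanges glutamine and other small neutral amino acids with sodium. It had 10072.15 expected counts (444 CPM) in siKAT7 and 8276.76 (340 CPM) in siControl, a log2 ratio of 0.39 (0.34 to 0.43). The SLC7A5 to SLC1A5 count ratio was 2.48 in siKAT7 and 2.44 in siControl, with a log2 change of 0.02 (-0.03 to 0.07). SLC7A5, SLC3A2 and SLC1A5 thus stood in nearly the same proportions in both libraries. An antisense gene, AC008622.2, shares 25.8% of the SLC1A5 transcript windows and had 29.85 counts in siKAT7 and 13.24 in siControl.

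SLC1A4 (ENSG00000115902, ASCT1, chromosome 2, 64988477 to 65023865, forward strand) carries alanine, serine and cysteine and is in the same family as SLC1A5. It had 183 counts (8.07 CPM) in siKAT7 and 122 (5.01 CPM) in siControl. The log2 ratio was 0.68 (0.35 to 1.03), a 1.61-fold difference and the largest of the 10, exceeded by 3.22% of all genes tested. Total-count scaling put it at 0.58, just under the 1.5-fold threshold. The central 95% of genes averaging 3 to 10 CPM ran from -0.74 to 0.76 and includes SLC1A4. Its count ratio to SLC1A5 was 0.0182 in siKAT7 and 0.0147 in siControl, a log2 change of 0.30 with an interval of -0.03 to 0.63.

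SLC38A1 and SLC38A2 (SNAT1 and SNAT2) are sodium-coupled importers of glutamine, alanine and other small neutral amino acids, and lie on chromosome 12 on the reverse strand, at 46183063 to 46270017 and 46358189 to 46372867. SLC38A2 (ENSG00000134294), known as the carrier induced when amino acids are scarce, had 2231 counts (98.4 CPM) in siKAT7 and 2339 (96.1 CPM) in siControl. Its log2 ratio was 0.03 (-0.05 to 0.12), and total-count scaling turned it to -0.07 (-0.16 to 0.01). SLC38A1 (ENSG00000111371) had 234 counts (10.3 CPM) in siKAT7 and 274 (11.3 CPM) in siControl, with a log2 ratio of -0.13 (-0.38 to 0.13). The upper bound for SLC38A2, 0.12, lies below the lower bound for SLC1A5, 0.34. The SLC1A5 to SLC38A2 count ratio was 4.51 in siKAT7 and 3.54 in siControl, a log2 change of 0.35 (0.26 to 0.44).

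SLC43A1 (ENSG00000149150, LAT3, chromosome 11, 57484534 to 57515786, reverse strand) is a uniporter of leucine and other large neutral amino acids that works without SLC3A2. It had 189 counts (8.33 CPM) in siKAT7 and 159 (6.53 CPM) in siControl. The log2 ratio was 0.35 (0.04 to 0.66), and under total-count scaling it was 0.24, with an interval that included 0. Its ratio to SLC7A5 moved by less than counting error, with a log2 change of the SLC7A5 to SLC43A1 ratio of 0.06 (-0.25 to 0.36).

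**Figure D3:**
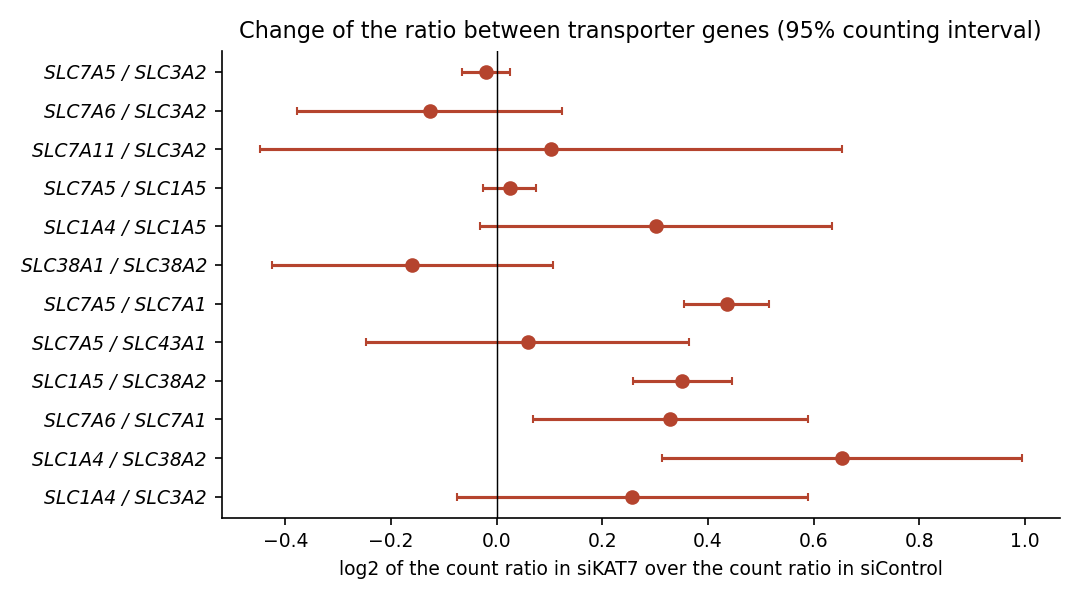
Log2 change of the count ratio between 12 pairs of transporter genes, siKAT7 over siControl, with 95% counting intervals; scaling between libraries cancels. SLC7A5 / SLC3A2 and SLC7A5 / SLC1A5 lie at -0.02 and 0.02, while SLC7A5 / SLC7A1 and SLC1A5 / SLC38A2 lie at 0.44 and 0.35.

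Of all 45 pairs among the 10 genes, 20 had an interval of the log2 change that excluded 0, without adjustment for the number of pairs. By the protein families in the deposited annotation, the amino acid permease domain is shared by SLC7A1, SLC7A5, SLC7A6 and SLC7A11. Within that family the SLC7A5 to SLC7A1 ratio differed beyond counting error, while the intervals of SLC7A5, SLC7A6 and SLC7A11 overlapped. The SLC1 pair share the sodium:dicarboxylate symporter family and were both higher. The SLC38 pair share another transporter family, and neither differed beyond counting error. The authors' deposited table marks 310 of its 60623 genes as significant, and 0 of the 10 transporters. KAT7, the siRNA target, is also not marked there, at a log2 fold of -0.63. The mark does not follow the adjusted p-value alone, since SLC7A5, SLC3A2, SLC1A5 and KAT7 have very small ones there. A missing mark is therefore not a finding of no difference. With 1 library per group, those p-values do not measure the spread between cultures. In the authors' deposited table the log2 folds were 0.32 for SLC3A2, 0.30 for SLC7A5, 0.28 for SLC1A5 and 0.58 for SLC1A4, and 0.41, 0.24 and 0.19 for SLC7A11, SLC43A1 and SLC7A6. The other 3 were negative in the authors' deposited table, at -0.23 for SLC38A1, -0.13 for SLC7A1 and -0.07 for SLC38A2.

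**Figure D4:**
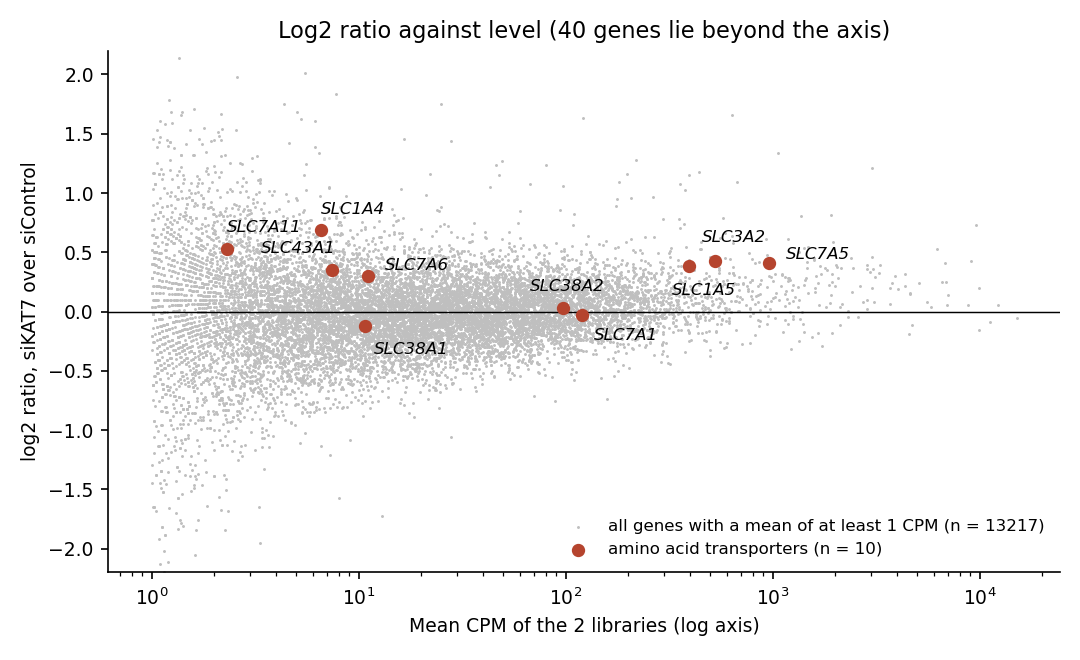
Log2 ratio (siKAT7 over siControl) against mean CPM on a log axis for 13217 genes (grey) and the 10 transporter genes (red), with 40 genes beyond the vertical axis. SLC3A2, SLC7A5 and SLC1A5 lie within the spread of genes above 300 CPM, and SLC7A11 and SLC1A4 lie where low counts spread the ratios widely.

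The level and length of genes moved with the ratios in the whole table. The median log2 ratio was 0.13 over 475 genes averaging 300 CPM or more, where the central 95% ran from -0.26 to 0.78, and SLC3A2, SLC7A5 and SLC1A5 lie inside it. Genes under 1000 bases in deposited length had a median of 0.18, those of 2000 to 3000 bases -0.01, and those of 7500 or more -0.07. The 10 transporters have deposited lengths of 2222 (SLC3A2) to 9645 bases (SLC7A11). The part of level and length in the transporter values was not tested.

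Other genes of amino acid transporter families, listed as carriers of the cell surface, were mostly at low levels or unexpressed. Those measured were split between higher and lower. The list went by family, and SLC43A3, SLC6A17 and SLC38A10 in it may not carry amino acids at the cell surface. Their log2 ratios were -0.07, -0.12 and -0.19, and the median without them was not computed. Of 36 such genes in the SLC1, SLC3, SLC6, SLC7, SLC16, SLC36, SLC38 and SLC43 families, 13 averaged 1 CPM or more, and 12 had 0 counts in both libraries, which allows up to 0.132 CPM in siKAT7 and 0.123 CPM in siControl. The median log2 ratio of the 13 was -0.03, with 6 above 0 and 7 below. By the 1.5-fold rule 0 were called lower and 12 did not pass, against 3.91% of all genes called in each direction. SLC1A3, a glutamate and aspartate carrier, was called higher. It had 67 counts in siKAT7 and 46 in siControl, a log2 ratio of 0.64 (0.08 to 1.22). Total-count scaling put it at 0.53, under the threshold. Transporters of amino acids and related solutes in lysosomes had a median of -0.13 over 11 measured genes of 13. Of these, 0 were called in either direction, against 3.91% of all genes in each.

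Among 29 measured transporters of glucose, lactate, nucleosides, choline, ions and vitamins, 25 had a log2 ratio below 0 and the median was -0.10. Of all genes 49.3% were above 0. Intervals were below 0 for 8, above 0 for 3 and included 0 for 18, against 22.0% below and 23.0% above over all genes. By the 1.5-fold rule 1 was called higher and 0 lower, against 3.91% of all genes in each direction. Summed over the list, the level was 2325 CPM in siKAT7 and 2204 CPM in siControl.

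**Figure D5:**
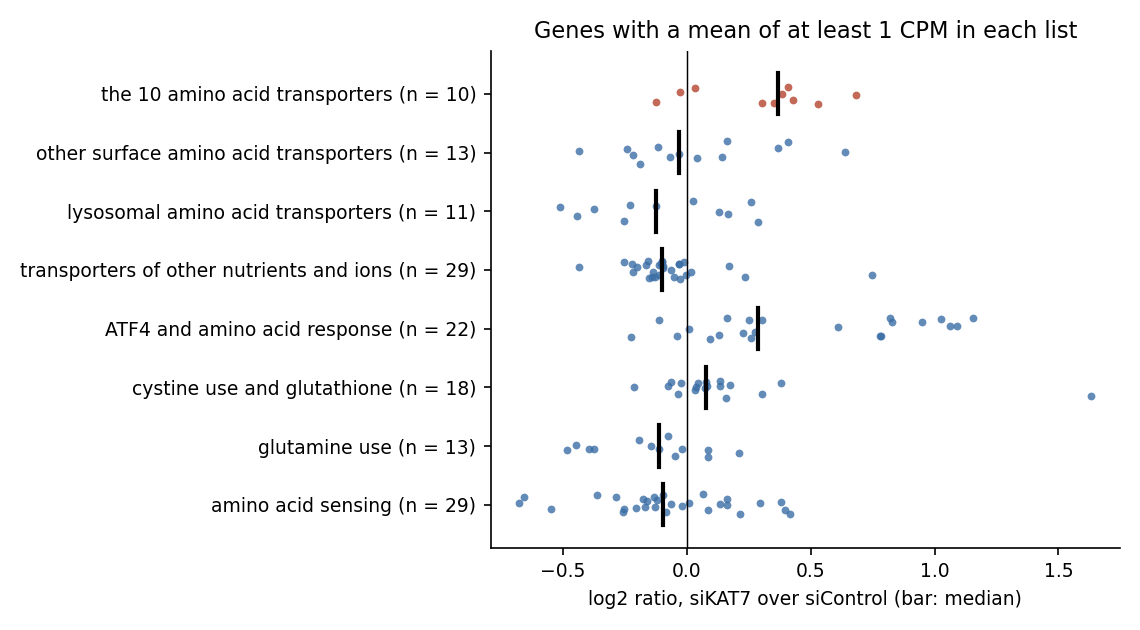
Log2 ratio (siKAT7 over siControl) of each gene averaging 1 CPM or more in 8 gene lists, 1 point per gene, with the list median as a bar. The medians of the 10 transporters (0.37) and of the ATF4 list (0.29) are the furthest to the right.

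ATF4 and its amino acid response genes outside the transporters had a median log2 ratio of 0.29, with 10 of 22 measured genes called higher and 0 lower. Of all genes 3.91% were called in each direction. This list, like the others, was chosen with earlier results of these data known. ATF4 itself, called higher but not among the largest 4, had 25299.97 expected counts in siKAT7 and 17810 in siControl, a log2 ratio of 0.61 (0.58 to 0.64). PPP1R15A, which directs dephosphorylation of eIF2-alpha, and the pseudokinase TRIB3 had log2 ratios of 1.16 and 1.09. The transcription factor DDIT3 had 1.03, and CHAC1, an enzyme that breaks down glutathione, had 1.06. The other 12 measured genes of the list were not called, and MTHFD2 and ALDH18A1, enzymes of mitochondrial folate and of proline synthesis named after their values were seen, had -0.11 and -0.23, both with intervals below 0. ASNS, which makes asparagine and was named after its values were seen, had 1581.87 counts in siKAT7 and 1592.33 in siControl, a log2 ratio of 0.09 (-0.01 to 0.19).

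Genes that use imported cystine or make glutathione, with regulators of SLC7A11, had 13 of 18 log2 ratios above 0 and a median of 0.08, which total-count scaling turned to -0.030. By the 1.5-fold rule 1 was called higher and 0 lower, against 3.91% of all genes in each direction. HMOX1, which degrades haem, was the 1 called, with 4165 counts in siKAT7 and 1442 in siControl and a log2 ratio of 1.63 (1.55 to 1.72). Genes of glutamine use had a median of -0.11 over 13 measured of 15, with 10 below 0 and 0 called. Over all genes 49.3% were above 0 and 3.91% were called in each direction. MYC, a known regulator of glutamine use also named after its values were seen, had 6837 counts in siKAT7 and 7581.97 in siControl, a log2 ratio of -0.05 (-0.09 to 0.00013).

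Genes of amino acid sensing by mTORC1 and GCN2 had a median of -0.09, with 11 of 29 above 0, 0 called higher and 2 called lower. Over all genes 49.3% were above 0 and 3.91% were called in each direction. SESN1, of the sestrin family that inhibits mTORC1, had 57 counts in siKAT7 and 98 in siControl, a log2 ratio of -0.68 (-1.18 to -0.19). BMT2, which encodes the S-adenosylmethionine sensor SAMTOR, had 43 counts in siKAT7 and 73 in siControl, a log2 ratio of -0.66 (-1.24 to -0.10). The calls of SESN1 and BMT2 rest on low counts. SESN2, a sestrin placed in the ATF4 list and named after its values were seen, was called higher. It had 5292 counts in siKAT7 and 2944 in siControl, a log2 ratio of 0.95 (0.88 to 1.01). SESN3, in the sensing list, had 0.16 (-0.34 to 0.67), so the sestrins did not share a direction.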

How the data were processed

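Per the submitters' processing notes, RSEM 1.3.3 was used with GRCh38.p13, and the deposited table holds expected counts per gene. The sources used here do not give the annotation release or strand setting. Both count columns are repeated with 0 differing cells, and each was used once. Unnamed rows (331), with 1.67% of counts in siKAT7 and 1.11% in siControl, stayed out. The authors' deposited table gives the fold ratio of siKAT7 over siControl and its log2, and a p-value, raw and adjusted, which entered no call.

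Expected counts were rounded and scaled by TMM in edgeR 4.0.16 (factor 0.964 for siKAT7 and 1.04 for siControl) in R 4.3.3. Log2 ratios used a prior count of 0.5. Clopper-Pearson 95% intervals came from the split of counts between libraries, and pair intervals from the normal approximation of the log odds ratio. PCR reads that carry no molecular identifier are not independent. Calls and intervals were checked on data simulated with counting error only and with changes larger than those of the transporters. The check therefore does not cover spread between cultures or calls of changes as small as those here. Alternatives were total-count scaling, DESeq2 1.42.0 size factors, prior count 5, other filters and thresholds, the authors' folds and summed overlapping genes. All 229 list symbols were found. Coordinates are from GENCODE 29. The members and lists were chosen with earlier results of these data known. List genes named were the up to 4 largest calls with at least 100 summed counts, and some of these are not reported here. ATF4, ASNS, MTHFD2, ALDH18A1, MYC, SESN2, SESN3, SLC43A3, SLC6A17 and SLC38A10 were named outside this rule. So were CLDN4, CLDN7 and the other epithelial markers named. The planned protein alignment was not made.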

Additional observations from a re-analysis of the deposited data

How the results depend on the processing

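With 1 library per group no replicate could be left out. No paired analysis was possible because each group has 1 library. Of the 10 log2 ratios, total-count scaling changed the sign of 1 (SLC38A2, -0.07) and put 5 outside their counting interval. DESeq2 size factors, prior count 5 and the absence of a filter changed the sign of 0. The count of members at least 1.5-fold higher, 1 as reported, was 0 with total-count scaling, 0 of 7 at a mean of at least 10 CPM, 5 at a log2 threshold of 0.32 and 0 at 2-fold. The shares over all genes in the same order were 2.72%, 1.39% (of those reaching 10 CPM), 10.1% and 1.35%. The count with an interval below 0 was 1 of 10 with total-count scaling, against 35.6% of all genes. Under that scaling the medians of cystine and glutathione genes (-0.030) and reference genes (-0.076) turned negative and that of transporters of other nutrients was -0.21. Called genes under it were 0 higher among the other listed surface transporters and the reference genes. It called 1 of 11 lysosomal transporters, 1 of 13 glutamine genes and 3 of 29 sensing genes lower, and 9 of 22 ATF4 list genes higher. Over all genes it called 2.72% higher and 6.34% lower. The list alternatives were chosen after seeing the data. Depth limits SLC7A11 most, with 62 counts in siKAT7 and 46.48 in siControl.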

Other observations

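Solute carrier genes at large, 175 measured genes with SLC symbols outside the 10 transporters, had a median log2 ratio of -0.03, with 77 above 0 and 98 below. By the 1.5-fold rule, 5 of these were called higher and 4 lower, against 3.91% of all genes in each direction. Among 18 common reference genes, 10 were above 0, and the median was 0.03.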
